A study of Homo sapiens with 6 samples.

Results

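The genes described here are 34 regulators and targets of p53, the transcription factor that halts growth or triggers death in damaged or stressed cells, taken by name from the 17335 genes of the deposited expression table. The list leaves out p53 targets of the death receptor, BCL2 and deoxynucleotide groups. The study sequenced RNA of A549, an established line grown from a human lung adenocarcinoma, after BRQ or after DMSO, a common drug solvent, with 3 libraries per group. Its title speaks of an inhibitor of DHODH, a mitochondrial enzyme that makes pyrimidines, and BRQ, an abbreviation the labels leave unexplained, was read as that compound. Neither the dose nor the length of exposure is given, and nothing says whether each library had a culture of its own, so every p-value reflects library-to-library spread that may be technical. All 34 genes were listed and all 34 passed the filter on low values.

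p53 is kept low by MDM2, a ubiquitin ligase that marks it for destruction, and by the MDM2 relative MDM4, which binds p53 and blocks its activity. Damage kinases and proteins released from stressed nucleoli loosen this hold, and p53 then switches on genes for arrest, DNA repair, metabolism and death. MDM2 is itself among these genes, which closes a negative feedback loop. A549 cells are known to carry wild-type p53.

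The p53 binding site is made of a pair of decamers, each of 3 purines, a C, 2 bases that are A or T, a G and 3 pyrimidines. This decamer, which reads the same on both strands, was searched for without mismatch in RefSeq promoter windows (GRCh38.p14) from 250 bases before to 50 bases after each annotated start. Windows were found for 28 of the 34 genes, and 6 of the 28 held the decamer (21.4%), against 8.06% of 27305 genes with a window. Pairs of adjoining decamers were also searched for, keeping the fixed C and G of each and allowing at most 2 departures elsewhere. Such a pair was present for 3 of the 28 genes (10.7%), against 0.359% of all genes with a window. The genes were listed for their tie to p53, which can itself rest on such sites, so both shares are descriptions with no test. A match describes these letters only, and sites farther from the start were not searched. The 7 matching stretches are shown because their genes moved in different directions, with matched bases in capitals (for DDB2 the exact decamers alone) and the strand of the gene from 5′ to 3′.
MDM2, chr12:68808867-68809001, plus strand, upstream of a start inside the gene and outside annotated exons: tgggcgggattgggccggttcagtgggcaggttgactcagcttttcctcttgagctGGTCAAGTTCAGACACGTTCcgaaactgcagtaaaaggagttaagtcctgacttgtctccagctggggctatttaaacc
SESN1, chr6:109008989-109009138, minus strand, upstream of a start inside the gene and outside annotated exons: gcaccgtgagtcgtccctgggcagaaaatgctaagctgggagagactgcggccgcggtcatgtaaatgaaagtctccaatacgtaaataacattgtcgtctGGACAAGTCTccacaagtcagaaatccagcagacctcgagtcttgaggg
AEN, chr15:88621301-88621330, plus strand, within an annotated exon: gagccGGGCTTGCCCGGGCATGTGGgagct
FDXR, chr17:74872986-74873015, minus strand, within an annotated exon: gggcaggagcGGGCTTGCCCtgcggagcag
DDB2, chr11:47214974-47215003, plus strand, within an annotated exon: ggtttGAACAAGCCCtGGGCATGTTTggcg
RPS27L, chr15:63157517-63157546, minus strand, within an annotated exon: ggcctagagcAGACAAGCCCgccccgccgc
PLK2, chr5:58460199-58460228, minus strand, within an annotated exon: tggcgggacaAGACTTGCTTcccggccacg
DDB2 held exact decamers 1 base apart. Its pair match, which takes in the first of them, begins 5 bases before a start inside the gene and so is not shown whole. AEN and FDXR shared an identical exact decamer. It began 34 bases upstream of a start inside the AEN gene and 11 bases upstream of the start of FDXR. The decamers of RPS27L and PLK2, though within GENCODE exons, began 59 and 132 bases upstream of the RefSeq starts of these genes. In the measurements below, AEN fell and FDXR rose. Of the 3 genes with a decamer pair, AEN and DDB2 fell, and MDM2 rose by 0.13 on the log2 scale, a call that several settings ended.

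Between groups the p53 genes moved in both directions, with more rises than falls. In limma, 23 of the 34 genes rose in BRQ and 9 fell at an adjusted p under 0.05, while NINJ1 and ZMAT3 were not called. Across all 12258 tested genes the treatment changed most of the table, with 79.7% called, 44.3% higher and 35.4% lower. Against that background, 67.6% of the p53 genes were called higher and 26.5% lower. Their median log2 fold change was 0.36, against 0.07 for all tested genes. Rises of at least 2-fold were made by 4 genes (TP53I3, FDXR, TP53INP1 and CCNG1; 10.3% of all tested genes) and falls of at least 2-fold by AEN and GDF15 (5.12% of all tested genes). These fold changes are on the scale of log2(FPKM + 0.5), BRQ over DMSO, and FPKM is a level per gene length and per library total. On this scale XPC, at -0.98, stayed just short of the 2-fold cut. Its DMSO mean was 2.02 times its BRQ mean, the same ratio as for GDF15. In RNA from whole cultures, fewer cells that express a gene and less of its RNA per cell cannot be told apart.

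**Figure D1:**
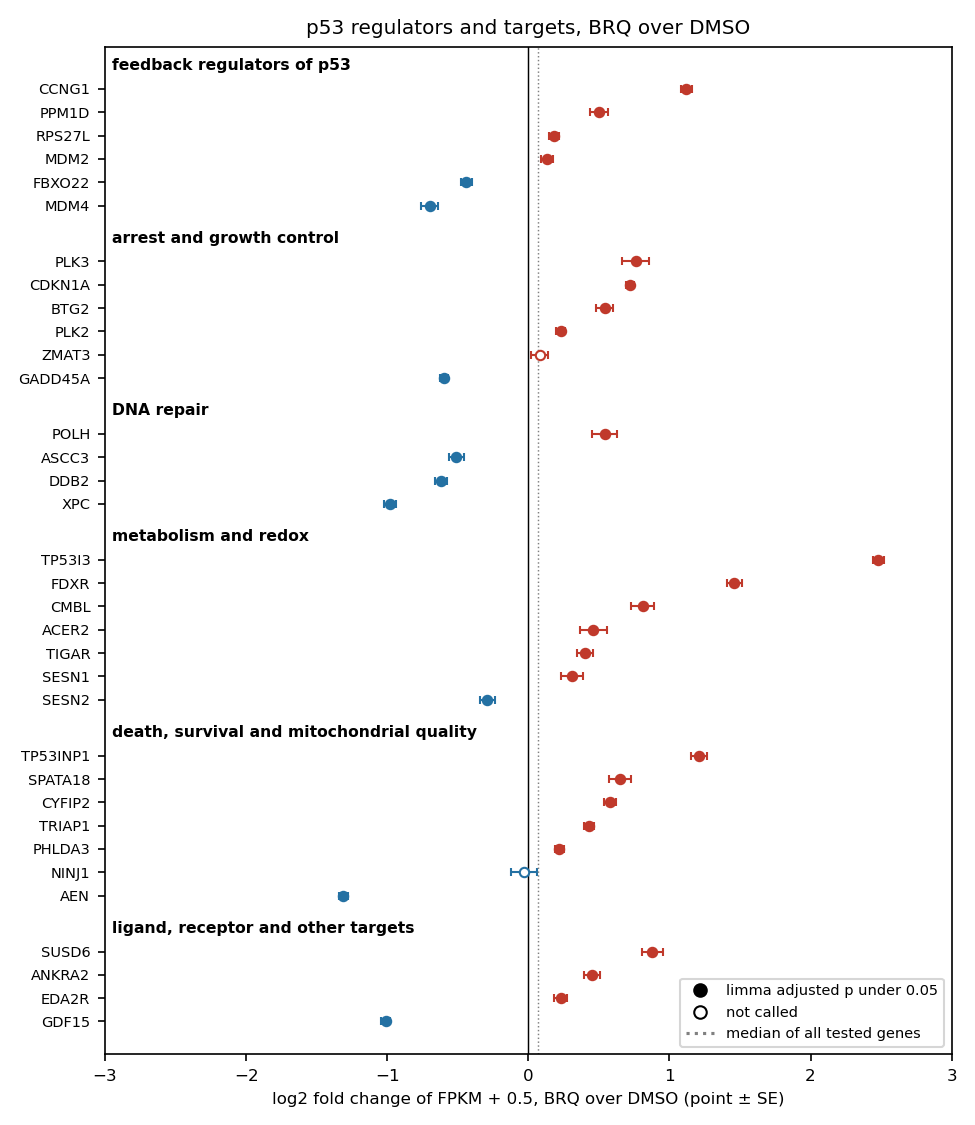
Log2 fold change of FPKM + 0.5, BRQ over DMSO, for the 34 p53 regulators and targets by role, with standard errors; filled points passed limma's adjusted p of 0.05. TP53I3 lies farthest right at 2.48 and AEN farthest left at -1.31, and 3 of the 4 DNA repair genes lie left of 0.

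The libraries were alike within groups, with correlations of log2 values of 0.996 to 0.997, against 0.919 to 0.927 between groups. The library totals worked back from the FPKM steps were 32195353 to 34908895 reads in BRQ and 27789225 to 29644462 reads in DMSO. All 10 markers of A549 and lung epithelium were listed, and they summed to 1760 to 1880 FPKM in BRQ and 1390 to 1400 FPKM in DMSO. Among them KRT7 was lower in BRQ (0.616 times its DMSO mean), 8 were higher, from 1.46 times for KRT18 to 8.35 times for KRT19, and SFTPB, a surfactant gene of alveolar type II cells, was at 0.0102 FPKM in BRQ and 0 in DMSO. The summed level of 4 fibroblast markers was 4.23 to 4.44 FPKM in BRQ and 1.21 to 1.78 FPKM in DMSO, most of it COL1A1, and the 3 endothelial markers summed to 0.117 to 0.188 FPKM in BRQ and at most 0.0398 FPKM in DMSO. Of 4 blood cell markers, CD3E and HBB were not listed, and the rest summed to at most 0.0241 FPKM. Their part in the results was not tested.

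The feedback regulators of p53 were split. MDM2, on chromosome 12 from 68808172 to 68850686 (GRCh38.p14, as for all gene positions here), had 64.8, 61.7 and 64.2 FPKM in the BRQ libraries, against 58.7, 60.8 and 54.5 FPKM in the DMSO libraries. The BRQ values lay just above the DMSO values, and the log2 fold change of 0.13 (SE 0.043) was called with a limma adjusted p of 0.0159. That call ended under median-of-ratios scaling (adjusted p = 0.476), quantile normalization (0.513), without an intensity trend (0.0568), without BRQ replicate 1 (0.0549) and without DMSO replicate 3 (0.0616), and the adjusted p ran from 0.000495 to 0.513 over the alternatives. MDM2 shares 133 exon bases, 1% of its own, with CPM, a carboxypeptidase gene on the opposite strand. CPM had 21.5 ± 0.282 FPKM in BRQ and 1.23 ± 0.121 FPKM in DMSO (SD, n = 3). The strand setting of the counting is unknown here, and the part of CPM in the MDM2 value was not tested.

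MDM4, on chromosome 1 from 204516406 to 204558120, fell. It had 3.77, 3.55 and 3.85 FPKM in BRQ, against 6.54, 6.33 and 6.2 FPKM in DMSO, which gave a log2 fold change of -0.70 with an SE of 0.063 (limma adjusted p = 2.54e-06). Every BRQ library was below every DMSO library. Within a library, the FPKM of MDM2 was 17.2, 17.4 and 16.7 times that of MDM4 in BRQ, against 8.98, 9.60 and 8.79 times in DMSO. This ratio does not depend on scaling between libraries, and it was 0.91 higher on the log2 scale in BRQ. The pair was chosen with these levels known, so the ratio is a description with no test, as are the other ratios between genes.

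PPM1D, the phosphatase WIP1 that reverses damage-induced phosphorylation of p53, rose. Its values were 11.7, 10.8 and 11.5 FPKM in BRQ, against 7.31, 7.82 and 8.57 FPKM in DMSO (log2 fold change 0.50, SE 0.064, limma adjusted p = 4.06e-05). CCNG1, cyclin G1, which brings the phosphatase PP2A to MDM2, rose more, with 64.8, 61.3 and 61.7 FPKM in BRQ, against 29.2, 28.3 and 27.9 FPKM in DMSO (log2 fold change 1.12, SE 0.037, adjusted p = 1.74e-09 in limma). The groups did not overlap for either gene, and CCNG1 was 2.20 times its DMSO mean. RPS27L, a ribosomal protein paralogue that binds MDM2, averaged 27.3 ± 0.446 FPKM in BRQ and 24.1 ± 0.0589 FPKM in DMSO (SD, n = 3). Its call (limma adjusted p = 0.000966, log2 fold change 0.18) ended under median-of-ratios scaling (adjusted p = 0.0630; 5.63e-05 to 0.0630 over the alternatives). FBXO22, the F-box subunit of an SCF ubiquitin ligase, fell to 35.9, 33.3 and 35.7 FPKM in BRQ, against 48.2, 46.4 and 48.0 FPKM in DMSO (log2 fold change -0.44, limma adjusted p = 2.48e-06).

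**Figure D2:**
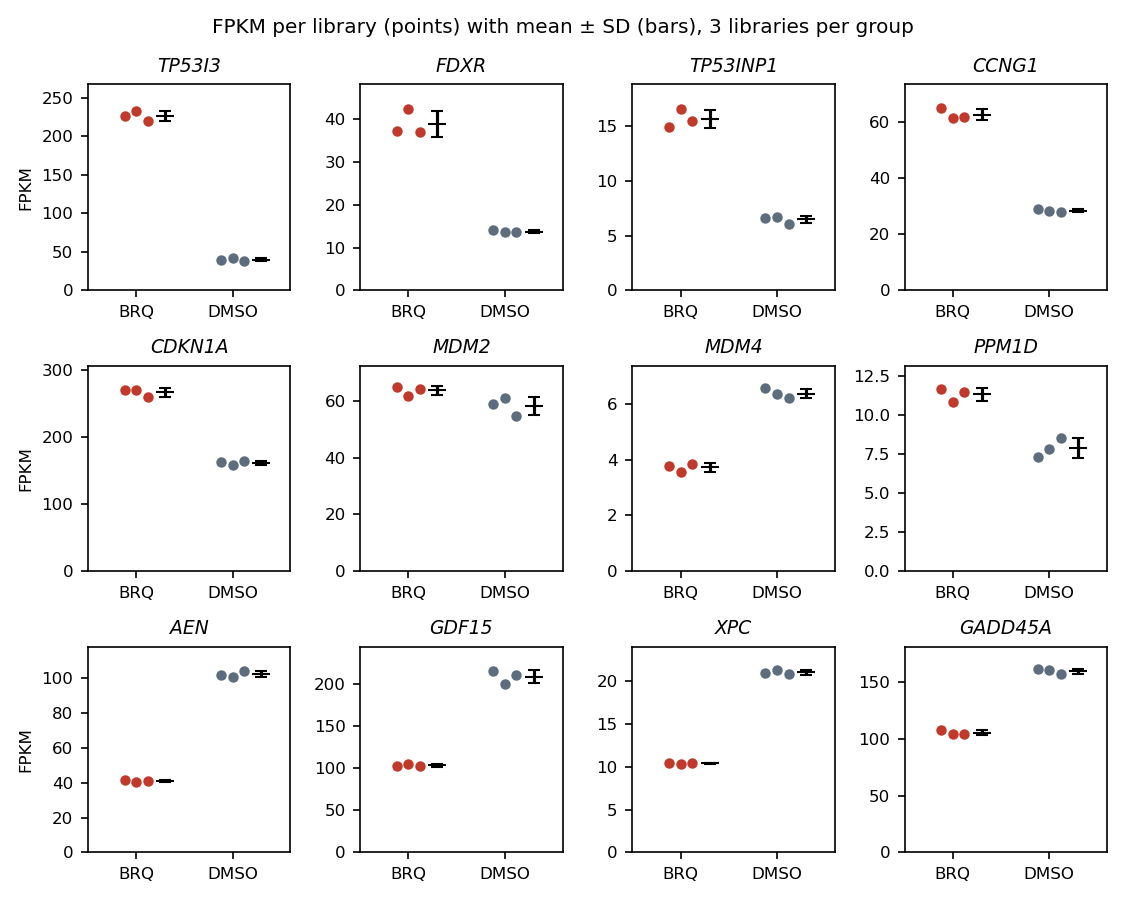
FPKM in each of the 3 BRQ and 3 DMSO libraries for 12 of the genes, with the mean and SD beside the points; every axis starts at 0. The groups do not overlap in any panel, and the gap is narrowest for MDM2, where the lowest BRQ library had 61.7 FPKM and the highest DMSO library 60.8 FPKM.

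Genes of arrest and growth control were called higher in 4 of 6 cases, against 44.3% of all tested genes. CDKN1A, which encodes the cyclin-dependent kinase inhibitor p21, on chromosome 6 from 36676463 to 36687332, had 269.8, 270.6 and 259 FPKM in BRQ, against 163, 158 and 164 FPKM in DMSO. This is 1.65 times the DMSO mean (log2 fold change 0.72, SE 0.029, limma adjusted p = 7.39e-09). CDKN1A had the highest mean of the 34 genes in BRQ and the second highest, after GDF15, in DMSO. GADD45A, a stress protein that binds p21 and PCNA, moved the opposite way, with 108, 104 and 105 FPKM in BRQ, against 161, 161 and 157 FPKM in DMSO (log2 fold change -0.60, SE 0.028, adjusted p = 2.12e-08 in limma). The FPKM of CDKN1A was 2.50, 2.59 and 2.48 times that of GADD45A in BRQ, against 1.01, 0.981 and 1.04 times in DMSO, where the pair were level.

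BTG2, an antiproliferative protein that recruits the CCR4-NOT deadenylase, had 21.6, 24.1 and 24.7 FPKM in BRQ, against 16.7, 15 and 16.2 FPKM in DMSO (log2 fold change 0.54, limma adjusted p = 1.13e-05). The polo-like kinase PLK3 had 13.4, 15.3 and 14.2 FPKM in BRQ, against 6.86, 9.17 and 8.88 FPKM in DMSO, where replicate 1 was the lowest (log2 fold change 0.76, SE 0.097). Its relative PLK2, which was more abundant in every library, averaged 113.5 ± 2.29 FPKM in BRQ and 96.5 ± 3.0 FPKM in DMSO (log2 fold change 0.23, SD, n = 3). Both were called, and the PLK3 to PLK2 ratio was 0.116 to 0.137 in BRQ and 0.0726 to 0.0936 in DMSO. ZMAT3, a zinc finger RNA-binding protein, had 4.80 ± 0.118 FPKM in BRQ and 4.52 ± 0.0279 FPKM in DMSO and was not called (limma adjusted p = 0.249), although its BRQ values all lay above its DMSO values.

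Of the 4 DNA repair genes, 3 were called lower and 1 higher, against 35.4% and 44.3% of all tested genes. XPC and DDB2, which recognise lesions for nucleotide excision repair, fell together. XPC, on chromosome 3 from 14145147 to 14178601, had 10.4, 10.4 and 10.5 FPKM in BRQ, against 21, 21.3 and 20.8 FPKM in DMSO (log2 fold change -0.98, SE 0.041, limma adjusted p = 8.90e-09). DDB2, on chromosome 11 from 47214454 to 47239217, had 30.1, 27.5 and 28.4 FPKM in BRQ, against 45.0, 45.0 and 43.4 FPKM in DMSO (log2 fold change -0.62, SE 0.041, limma adjusted p = 2.38e-07). For each the highest BRQ library was well below the lowest DMSO library. XPC shares 6.63% of its exon bases with LSM3 on the opposite strand, which had 13.7 ± 0.251 FPKM in BRQ and 12.2 ± 0.194 FPKM in DMSO.

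ASCC3, a helicase used in repair of alkylated DNA and in rescue of stalled ribosomes, fell to 7.91, 7.57 and 8.44 FPKM in BRQ, against 11.4, 11.8 and 11.4 FPKM in DMSO (log2 fold change -0.51, limma adjusted p = 9.62e-06). It is the longest of the 34 genes, with a span of 373 kb, and the median fold change of the 581 tested genes with spans of 200 to 400 kb was -0.29 on the log2 scale. The part of span in the result was not tested. POLH, the translesion DNA polymerase eta, was the repair gene that rose. It had 3.63, 3.13 and 3.21 FPKM in BRQ, against 2.34, 2.05 and 1.99 FPKM in DMSO (log2 fold change 0.54, SE 0.087, limma adjusted p = 0.000202), and its libraries held 634 to 1333 reads of it. The POLH to XPC ratio was 0.348, 0.303 and 0.306 in BRQ, against 0.112, 0.0963 and 0.0958 in DMSO.

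Metabolic and redox targets held the largest rises, and 6 of the 7 were called higher, against 44.3% of all tested genes. TP53I3, a quinone oxidoreductase also called PIG3, on chromosome 2 from 24077433 to 24084834, had 226, 233 and 219.9 FPKM in BRQ, against 39.7, 42.2 and 38.3 FPKM in DMSO. The ratio of means was 5.65 (log2 fold change 2.48, SE 0.040, limma adjusted p = 2.25e-11), and 99.3% of tested genes had a lower fold change. It had the second highest mean of the 34 genes in BRQ and the tenth highest in DMSO, and its FPKM was 0.839, 0.862 and 0.849 times that of CDKN1A in BRQ, against 0.244, 0.267 and 0.234 times in DMSO. TP53I3 shares 80 exon bases, 3.46% of its own, with FAM228B on the opposite strand, which was at 1.14 ± 0.167 FPKM in BRQ and 0.372 ± 0.157 FPKM in DMSO.

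FDXR, the mitochondrial ferredoxin reductase, on chromosome 17 from 74862497 to 74872994, had 37.3, 42.3 and 36.9 FPKM in BRQ, against 14.1, 13.5 and 13.6 FPKM in DMSO (log2 fold change 1.46, SE 0.054, limma adjusted p = 3.97e-09). Set against AEN, with which it shares the decamer shown above, FDXR stood at 0.904, 1.04 and 0.904 times the FPKM of AEN in BRQ, against 0.138, 0.135 and 0.131 times in DMSO. CMBL, a hydrolase of the dienelactone hydrolase family, rose to 5.79, 5.96 and 6.89 FPKM in BRQ, against 3.04, 3.44 and 3.48 FPKM in DMSO (log2 fold change 0.81, limma adjusted p = 6.51e-06). ACER2, a Golgi ceramidase, had 3.95, 4.66 and 4.02 FPKM in BRQ, against 3.35, 2.80 and 2.64 FPKM in DMSO (log2 fold change 0.46, SE 0.096). TIGAR, a fructose bisphosphatase that slows glycolysis, averaged 9.98 ± 0.15 FPKM in BRQ and 7.42 ± 0.392 FPKM in DMSO (SD, n = 3; log2 fold change 0.40).

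The sestrins, relatives that restrain the growth kinase complex mTORC1, moved apart. SESN1 had 3.01, 3.11 and 3.38 FPKM in BRQ, against 2.47, 2.30 and 2.62 FPKM in DMSO, and was called higher (log2 fold change 0.31, SE 0.080, limma adjusted p = 0.00470; 0.000945 to 0.0480 over the alternatives). SESN2 had 21.9, 23.6 and 20.9 FPKM in BRQ, against 27.5, 25.9 and 27.8 FPKM in DMSO, and was called lower, with a log2 fold change of -0.29 and an SE of 0.051 (adjusted p = 0.000405 in limma). SESN2 remained the more abundant in every library. The SESN1 to SESN2 ratio was 0.132 to 0.162 in BRQ and 0.0888 to 0.0942 in DMSO.

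Of the 7 genes for death, survival and mitochondrial quality 5 rose and AEN fell, while NINJ1 was not called. Among all tested genes 44.3% were called higher and 35.4% lower. AEN, a nuclease that promotes apoptosis, on chromosome 15 from 88604683 to 88632281, had the largest fall of the 34 genes. It had 41.3, 40.6 and 40.9 FPKM in BRQ, against 101.9, 100.6 and 104 FPKM in DMSO (limma log2 fold change -1.31, SE 0.030, adjusted p = 1.96e-10). Only 2.33% of all tested genes had a lower fold change. Every BRQ library was far below every DMSO library.

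TP53INP1, a stress protein that promotes autophagy and death, on chromosome 8 from 94925972 to 94949378, had 14.9, 16.5 and 15.4 FPKM in BRQ, against 6.63, 6.72 and 6.07 FPKM in DMSO (log2 fold change 1.21, SE 0.059, limma adjusted p = 2.71e-08). SPATA18, also called Mieap, which serves the clearing of damaged mitochondria, had 5.81, 4.86 and 5.04 FPKM in BRQ, against 3.13, 3.19 and 3.14 FPKM in DMSO (log2 fold change 0.65, limma adjusted p = 2.16e-05). CYFIP2, a subunit of the actin-regulating WAVE complex, had 16.6, 16.4 and 16.5 FPKM in BRQ, against 10.9, 10.6 and 11.3 FPKM in DMSO (log2 fold change 0.58). The groups did not overlap for these 3 genes, and TP53INP1 was 2.42 times its DMSO mean.

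TRIAP1, a small mitochondrial protein that restrains apoptosis, rose to 50.2, 48.1 and 47.5 FPKM in BRQ, against 36.8, 35.1 and 35.8 FPKM in DMSO (log2 fold change 0.43, limma adjusted p = 1.54e-06). PHLDA3, which blocks membrane binding of the survival kinase AKT, rose less, to 61.1 ± 0.985 FPKM in BRQ, against 52.3 ± 1.52 FPKM in DMSO (SD, n = 3; log2 fold change 0.22, limma adjusted p = 0.000126). NINJ1, which ruptures the plasma membrane of dying cells, was the only one of the 34 genes whose groups overlapped. It had 29.4, 21.4 and 25.9 FPKM in BRQ, against 24.9, 25.7 and 27.4 FPKM in DMSO (log2 fold change -0.03, limma adjusted p = 0.752), and its sign turned without BRQ replicate 2 or without DMSO replicate 3. BRQ values lay wholly above DMSO values for 24 of the 34 genes (44.9% of all tested genes) and wholly below for 9 (36.5%).

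Among ligands, receptors and other targets, 3 were called higher and GDF15 lower, against 44.3% and 35.4% of all tested genes. GDF15, a stress cytokine of the TGF-beta superfamily, on chromosome 19 from 18386158 to 18389176, had 102, 105 and 102 FPKM in BRQ, against 215, 199.7 and 209.8 FPKM in DMSO (log2 fold change -1.01, SE 0.033, limma adjusted p = 1.78e-09). It had the fifth highest mean of the 34 genes in BRQ and the highest in DMSO. EDA2R, a receptor for ectodysplasin A2, had 16.9, 18.1 and 17.2 FPKM in BRQ, against 14.8, 15.3 and 14.3 FPKM in DMSO (log2 fold change 0.23, limma adjusted p = 0.00104).

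SUSD6, a membrane protein with a sushi domain, rose to 11.6, 11.8 and 10.2 FPKM in BRQ, against 6.09, 6.06 and 5.41 FPKM in DMSO (log2 fold change 0.88, limma adjusted p = 1.12e-06). ANKRA2, an ankyrin repeat protein, had 10.3, 9.27 and 10.1 FPKM in BRQ, against 6.94, 7.23 and 7.18 FPKM in DMSO (log2 fold change 0.45, limma adjusted p = 3.78e-05). It shares 9.18% of its exon bases with UTP15 on the opposite strand, which was lower in BRQ (log2 fold change -0.67). The summed FPKM of the 34 genes was 1462, 1454 and 1429 in BRQ, against 1278, 1263 and 1264 in DMSO. TP53I3 made up 15.4% to 16% of that sum in BRQ and 3.03% to 3.34% in DMSO, while GDF15 made up 6.99% to 7.23% in BRQ and 15.8% to 16.8% in DMSO.

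**Figure D3:**
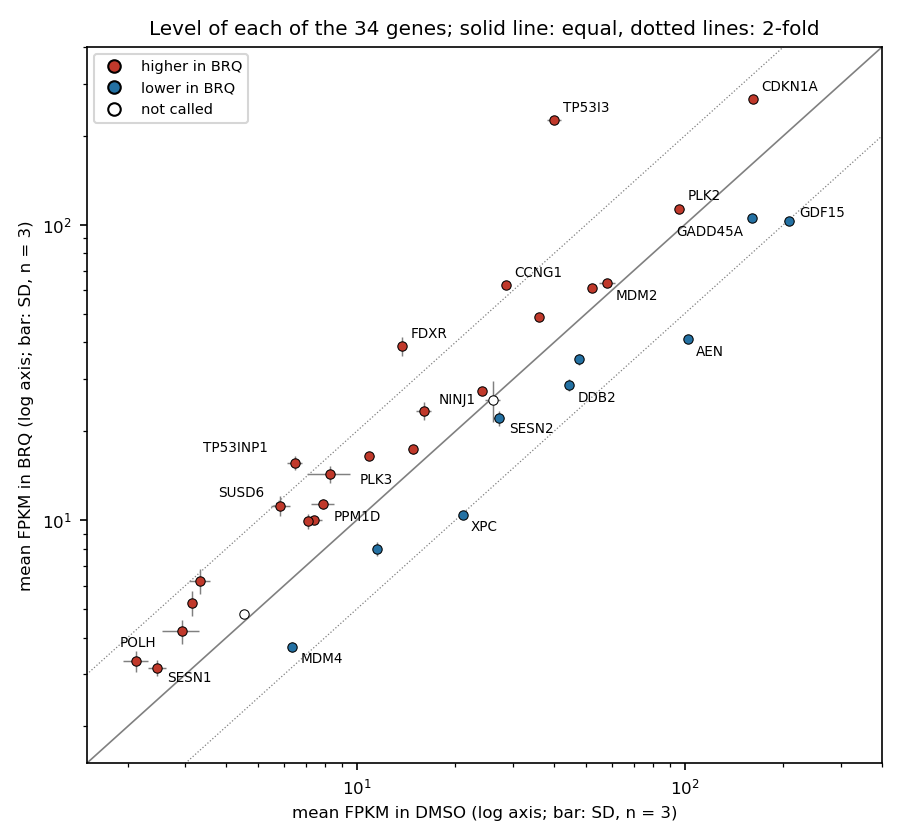
Mean FPKM of each of the 34 genes in BRQ against DMSO on log axes, with SDs over 3 libraries; the solid line marks equal levels and the dotted lines 2-fold. TP53I3 lies farthest above the upper dotted line (226.5 in BRQ, 40.1 in DMSO), and among the most abundant genes CDKN1A lies above the solid line while GDF15 and GADD45A lie below it.

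Other genes of the pathway were described from 4 further lists, with limma calls from the same fit. Of 69 other p53 target genes 62 were tested, and 43 were called higher (69.4%, against 44.3% of all tested genes) and 14 lower (22.6%, against 35.4%). Their median log2 fold change was 0.57, against 0.07 for all tested genes. Among the largest rises were those of the small GTPase gene RRAD (15.5 ± 1.29 FPKM in BRQ, 1.30 ± 0.154 FPKM in DMSO; log2 fold change 3.15), the placental growth factor PGF (log2 fold change 2.83) and SFN, the 14-3-3 sigma protein (277 ± 17.2 FPKM in BRQ, 64.6 ± 4.45 FPKM in DMSO; 2.09). The largest falls were those of the antiproliferative gene BTG1 (log2 fold change -1.11), the cytokine LIF (-0.91), the ceramide synthase CERS5 (-0.50) and TSKU (-0.49), a secreted proteoglycan.

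Of 32 kinases, cofactors and other regulators of p53, 18 were called lower (56.2%, against 35.4% of all tested genes) and 9 higher (28.1%, against 44.3%), and their median log2 fold change was -0.20, against 0.07. CHEK2, the checkpoint kinase that phosphorylates p53 after DNA breaks, had 6.58 ± 0.240 FPKM in BRQ and 14.4 ± 0.592 FPKM in DMSO (log2 fold change -1.07). The kinase HIPK2 (-0.96), the ubiquitin ligase TRIM24 (-0.86) and the replication stress kinase ATR (-0.73) fell as well. YPEL3 (1.11), MAGED2 (1.07), the ubiquitin ligase COP1 (0.62) and the mitotic kinase AURKA (0.44) rose. The spans of HIPK2, TRIM24 and ATR are 216, 130 and 129 kb, and that of CHEK2 is 54.1 kb. Among the named genes that rose, COP1 spans 262 kb and the others at most 22.8 kb. All tested genes with spans of 100 to 200 kb had a median of -0.08, against 0.18 for spans up to 20 kb. The part of span in this list was not tested. YPEL3, counted in this list, is known as a target of p53 rather than as its regulator. Among the 17 genes of the 5S ribonucleoprotein and of nucleolar proteins that bind or regulate MDM2, 12 were called lower (70.6%, against 35.4% of all tested genes) and 3 higher (17.6%, against 44.3%), with a median log2 fold change of -0.31. RPL23 had 86.4 ± 1.05 FPKM in BRQ and 253.6 ± 6.27 FPKM in DMSO (log2 fold change -1.55), followed by NOP53 (-1.24), GNL3 (-0.98) and RPL5 (-0.62), a core part of the 5S particle. HEATR3 (0.48), NOLC1 (0.27) and RPS15 (0.14) were higher, and the call of RPS15 ended under median-of-ratios scaling (adjusted p = 0.404). Pseudogene copies of ribosomal protein genes can share reads with them, which leaves the levels of RPL23, RPL5 and RPS15 uncertain.

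Of 30 cell cycle genes that are repressed through p21 and the DREAM complex, 15 were called lower (50%, against 35.4% of all tested genes) and 12 higher (40%, close to the 44.3% of all tested genes), with a median log2 fold change of -0.10. MCM5, a subunit of the replicative helicase, had 3.30 ± 0.0509 FPKM in BRQ and 10.6 ± 0.827 FPKM in DMSO (log2 fold change -1.54), and CDC20 (-0.79), ECT2 (-0.77) and PRC1 (-0.76), which act in mitosis and cytokinesis, fell. MYBL2, a transcription factor of the cell cycle, rose to 43.2 ± 2.68 FPKM in BRQ, against 17.9 ± 0.691 FPKM in DMSO (log2 fold change 1.24), and NEK2 (0.77), CDK1 (0.69) and KIF20A (0.61) rose as well.

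**Figure D4:**
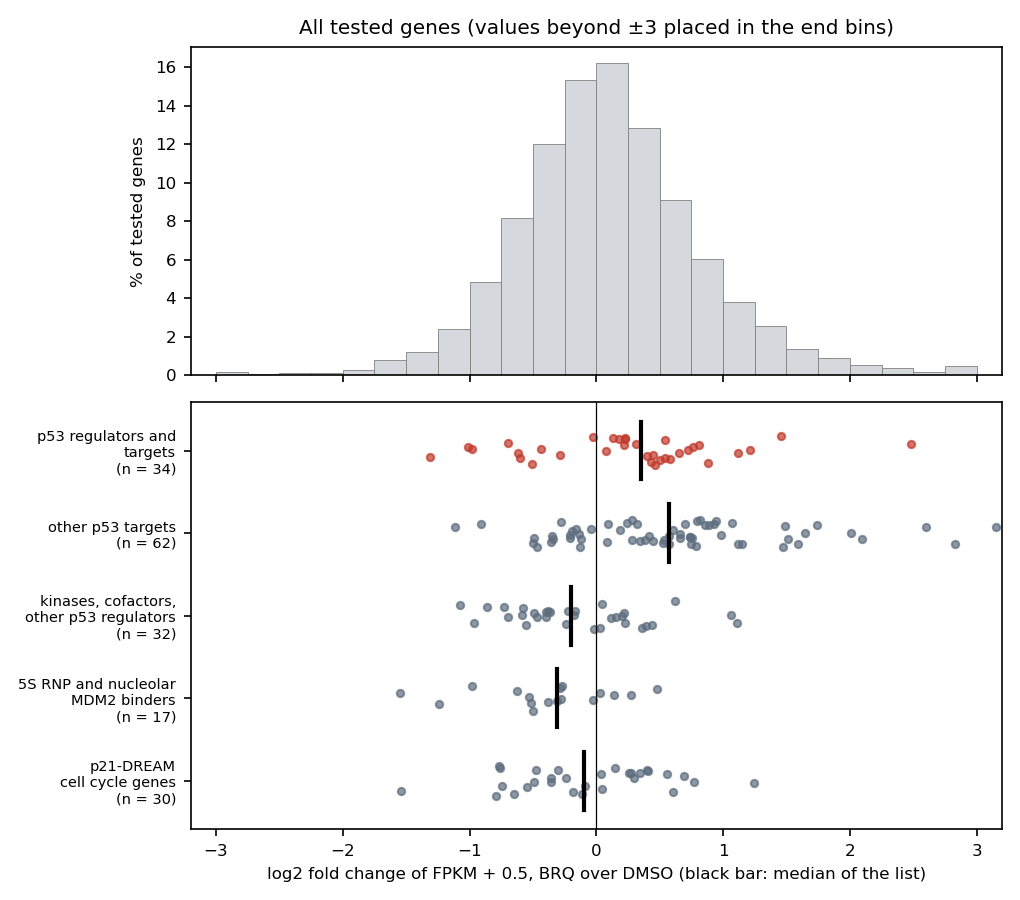
Upper panel, the share of the 12258 tested genes by log2 fold change of FPKM + 0.5, BRQ over DMSO; lower panel, the same quantity for each gene of the 34 p53 regulators and targets and of 4 other pathway lists, with the list median as a black bar. The medians are 0.36, 0.57, -0.20, -0.31 and -0.10 from top to bottom, and each list has genes on both sides of 0; in the upper panel values beyond ±3 stand in the end bins.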

How the data were processed

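RNA-seq libraries of A549 cells, 3 for BRQ and 3 for DMSO, were processed with fastp and HTSeq on build hg38, per the submitters' processing notes, which list no versions. Which aligner, annotation and strand setting were used is unknown here. The deposited table holds FPKM values, per its name and values, for 17335 genes, and no further scaling between libraries was seen. The steps between values gave back whole reads for 17335 of 17335 genes at a tolerance of 0.01 reads, used for depth and for 1 alternative. For genes with reads in few libraries some gene length nearly always fits, so for them this share is no check. The main test was limma 3.58.1 in R 4.3.3 on log2(FPKM + 0.5), with eBayes and an intensity trend, treatment as the only term, and Benjamini-Hochberg adjustment over the 12258 genes that reached 0.5 FPKM in 3 or more libraries. Fold changes on this scale understate those of low genes. The fit was tested on simulated data in which far fewer genes changed than were called here. That test does not cover a table changed this widely. No library repeated another: the chi-square per gene between replicates was 3.92 to 6.11.

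The 34 genes, their roles, the lists and the gene pairs set as ratios were chosen with earlier results of these data known. Named from each other list were the 4 largest called rises and 4 largest called falls with a mean of at least 1 FPKM; the others are given as counts, and 1 gene that the rule names is not reported here. List names PIRH2, PICT1 and BXDC1 were read as RCHY1, NOP53 and RPF2. Coordinates and promoters come from RefSeq (GRCh38.p14), and exon overlaps from GENCODE release 29. Of the 34 genes, 7 share exon bases with a listed gene on the opposite strand: MDM2, FBXO22, XPC, POLH, TP53I3, CYFIP2 and ANKRA2. Alternatives changed the pseudocount (0.1 or 1), the filter (none, or a mean of 1 FPKM) and the scaling (median-of-ratios or quantile), or used no trend, the replicate number as a block, limma-voom on the recovered reads, and leaving out each library.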

Additional observations from a re-analysis of the deposited data

How the results depend on the processing

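Of 510 recomputed log2 fold changes of the 34 p53 genes, 501 kept their direction and their side of the threshold; the others belonged to MDM2, RPS27L, ZMAT3 and NINJ1. MDM2 lost its call as given above, and RPS27L lost it under median-of-ratios scaling. ZMAT3, not called, turned to -0.012 under that scaling. NINJ1, not called, turned to 0.0052 without DMSO replicate 3 and 0.086 without BRQ replicate 2, and ran from -0.14 to 0.086 when single libraries were left out. The causes were not tested. Calls among the 34 genes numbered 21 to 23 higher and 9 lower over all alternatives, and 22 to 23 higher when single libraries were left out. Over all tested genes, median-of-ratios scaling put the median log2 fold change at -0.02, with 47.8% of calls higher, against 0.07 and 55.5%. Same-numbered libraries did not deviate together (correlations -0.023, -0.008 and -0.038), so no pairing by number was seen. This cannot show whether same-numbered cultures were handled together. With the replicate number as a block 23 of the 34 genes were called higher and 9 lower, as without it, and 5351 and 4278 of all tested genes. Small differences such as those of MDM2 and RPS27L are at the limit of what 3 libraries per group and the choice of scaling can settle.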
